A study of Mus musculus with 3 samples.

Results

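A set of 8 regulators linked to interneurons of the caudal ganglionic eminence was followed in RNA that tagged ribosomes had bound in the cortex of adult mice. They are Prox1, Nr2f1, Nr2f2, Sp8, Sp9, Npas1, Npas3 and Adarb2, chosen by symbol, and 8 of 8 were found among the 32532 gene symbols of each count table. All libraries come from adult mice that carry the Htr3a-Cre driver NO176 and a Rosa26-LSL-EGFP/Rpl10a reporter, in which Cre removes a stop cassette so that EGFP is fused to the ribosomal protein Rpl10a. Tagged ribosomes and the RNA on them were pulled from homogenates of the whole cortex with antibodies to EGFP, an assay called translating ribosome affinity purification. The 3 libraries, replicates 1, 2 and 3, form 1 immunopurified group, and RNA without purification was not analysed here, so genes were compared with other genes inside the same libraries. The tag marks every cell in which the driver was ever active, and any RNA carried along without a tagged ribosome is counted as well.

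Cortical interneurons are born in the ventral forebrain and migrate into the cortex. Cells from the caudal ganglionic eminence become the vasoactive intestinal peptide, neurogliaform and related types that carry the ionotropic serotonin receptor Htr3a, while the medial ganglionic eminence (MGE) yields the parvalbumin and somatostatin types. Each source has its own transcription factors, and several of them stay active in the adult neuron. The homeobox factor Prox1, the orphan nuclear receptors Nr2f1 and Nr2f2 (also named COUP-TFI and COUP-TFII), the zinc finger factors Sp8 and Sp9 and the PAS domain factors Npas1 and Npas3 act on DNA. Adarb2 is an RNA-binding protein of the adenosine deaminase family for which no editing activity is known.

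Gene counts summed to 14383545, 13951332 and 14461053 in replicates 1, 2 and 3. Levels are given in TPM (transcripts per 1000000), that is, counts divided by the merged length of all exons of a gene and rescaled so that libraries have equal sums. A value after ± is the SD of the libraries (n = 3). Of 14 fixed markers of the caudal class, 14 reached 1 TPM in 3 of 3 libraries. Of 10 excitatory markers 9 did so as well. The share of all genes that reached 1 TPM in 3 of 3 libraries was not computed, so such counts here and below have no background. The bar is low, since only 44.8% of the 16646 genes with a length and a count lay below Sp8 at a mean of 8.19 TPM. Most genes thus had a mean above 1 TPM. Cck and Vip led the caudal markers. Cck made up 6218, 4673 and 4179 TPM of their summed 11460, 9113 and 8877 TPM in replicates 1, 2 and 3. Which cells the Cck RNA came from was not tested. The excitatory markers summed to 3737, 3358 and 3418 TPM. Summed levels in replicates 1, 2 and 3 were 456, 373 and 379 TPM for 6 astrocyte markers, 231, 155 and 140 TPM for 5 oligodendrocyte markers and 48.5, 44.7 and 36.1 TPM for 4 markers of their precursors. They were 38.9, 38.7 and 42.3 TPM for 4 markers of immature neurons, 14.5, 8.64 and 11.5 TPM for 4 microglial markers and 2.72, 2.94 and 3.05 TPM for 4 endothelial markers. Slc1a2 alone made up 420, 342 and 347 TPM of the astrocyte sum in replicates 1, 2 and 3. By list median the astrocyte markers lay below the oligodendrocyte markers, at 7.36 against 31.7 TPM as means of the libraries. Whether the replicates came from separate animals is not stated, so p-values measure only the spread between these libraries, which may be technical. In bulk RNA, fewer cells of a type and less RNA per cell cannot be told apart.

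Because 3 pairs of the regulators are relatives, the letters in which a read could fit both genes of a pair are shown first. Each line gives the longest run shared by the principal transcripts of a pair, in capitals, with 24 bases of coding sequence on either side, 5′ to 3′, from the GENCODE M21 transcripts of GRCm38. The Nr2f1 and Nr2f2 run lies in the part that encodes the first DNA-binding zinc finger of these nuclear receptors.
Nr2f1: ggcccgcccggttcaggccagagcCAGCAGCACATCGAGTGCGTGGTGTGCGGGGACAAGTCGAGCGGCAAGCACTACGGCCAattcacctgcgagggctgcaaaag
Nr2f2: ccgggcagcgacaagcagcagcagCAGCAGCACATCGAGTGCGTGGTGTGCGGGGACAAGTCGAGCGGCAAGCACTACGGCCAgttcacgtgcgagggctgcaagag
Sp8: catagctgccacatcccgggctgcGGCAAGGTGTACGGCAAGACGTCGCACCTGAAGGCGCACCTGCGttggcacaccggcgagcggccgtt
Sp9: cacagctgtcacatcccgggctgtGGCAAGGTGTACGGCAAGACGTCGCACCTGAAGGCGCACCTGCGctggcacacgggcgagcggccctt
The shared run of Nr2f1 and Nr2f2 is 59 bases long, at chr13:78198284-78198342 and chr7:70360052-70360110, both minus strand, and 22 of the 48 flanking bases differ. That of Sp8 and Sp9, within their zinc finger region, is 44 bases long, at chr12:118849501-118849544 and chr2:73274121-73274164, both plus strand, and 6 of the 48 flanking bases differ. Npas1 and Npas3 share no run beyond 13 bases. Of all 50-base windows of Nr2f1 transcripts, 0.197% occur in Nr2f2, and 0 windows of Sp8 occur in any other annotated gene. Sp9 shares 0.881% of its windows with Sp5, another zinc finger factor of this family, which had 3, 0 and 3 counts in replicates 1, 2 and 3. Nr2f2 shares 7.61% of its windows with some other annotated gene, and Adarb2 2.99%. Most of the Nr2f2 share, 6.92% of its windows, belongs to B130024G19Rik, which overlaps Nr2f2 itself on the opposite strand. Likewise, 4.46% of the Sp9 windows belong to Cir1, which overlaps Sp9 on the opposite strand.

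The 8 regulators covered a wide range, with Adarb2 highest, Prox1 and Nr2f2 next, Npas3 in the middle, and Npas1, Nr2f1, Sp9 and Sp8 low. All 8 reached 1 TPM in 3 of 3 libraries and passed the minimum of the tests, a mean of 1 CPM. Means in CPM (counts per 1000000), without regard to length, ran from 7.37 for Sp8 to 897.5 for Adarb2. The median over the 8 genes was 44.6, 46.1 and 44.8 TPM in replicates 1, 2 and 3. Their summed level was 979, 779 and 743 TPM, of which Adarb2 made up 41.5% ± 1.97 and Prox1 26.3% ± 1.07. Sp8 contributed 0.989% ± 0.118. The TPM ratio of Adarb2 to Sp8 was 42.4 ± 6.19 with merged exons as length. On the log2 scale Adarb2 minus Sp8 was 5.38, and 6.31 with principal transcripts as length.

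**Figure D1:**
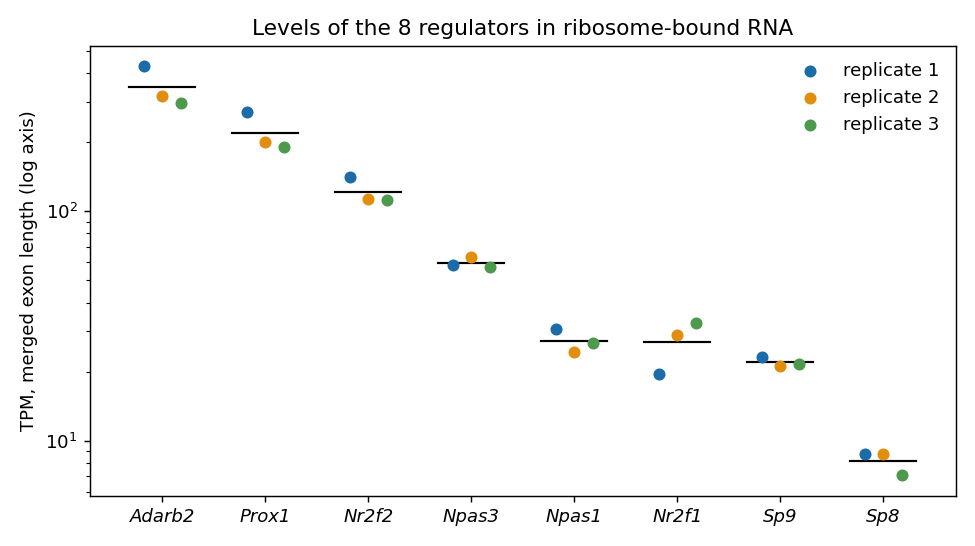
TPM of the 8 regulators on a log axis, with 1 point for each library and a bar at the mean. Adarb2 lies between 296 and 428 TPM and Sp8 between 7.07 and 8.76 TPM, and the range of Nr2f1, 19.5 to 32.5 TPM, spans the points of Npas1 and Sp9.

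Adarb2, on chromosome 13 from 8202866 to 8768747 on the plus strand of GRCm38, had 15452, 11751 and 11221 counts in replicates 1, 2 and 3. These gave 428, 319 and 296 TPM (348 ± 70.3), with the highest value in replicate 1 and the other libraries close together. The mean placed it above 97.4% of the 16646 genes with a length and a count. In the fit of Adarb2 against every tested gene, 94.3% of 12449 genes were called lower and 2.14% higher (limma, adjusted p at most 0.05).

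Prox1, a homeobox factor that caudal eminence interneurons need for their migration and maturation in mice, lies on chromosome 1 from 190118035 to 190170714 on the minus strand. It had 6230, 4732 and 4610 counts, or 270, 201 and 190 TPM in replicates 1, 2 and 3 (220.2 ± 43.1). Replicate 1 was again the highest library. Its level exceeded that of 94.98% of genes with a count, and the fit called 89.9% of genes lower and 4.4% higher. The log2 difference of Adarb2 minus Prox1 was 0.67, 0.67 and 0.64 in replicates 1, 2 and 3, so the TPM ratio was 1.58 ± 0.0177 with merged exons as length although both levels differed between libraries. With principal transcripts as length, Adarb2 minus Prox1 was 1.54. The mean difference of 0.66 (SE 0.16) passed the threshold (limma, adjusted p = 0.00372), and the p was 0.105 without replicate 2. Prox1 also marks granule neurons of the dentate gyrus, and 0 of 4 markers of these cells reached 1 TPM in 3 of 3 libraries. Their summed level was 1.87, 6.93 and 7.68 TPM in replicates 1, 2 and 3, and none of the 4 was at 0 throughout. The part of these cells in the Prox1 level was not tested.

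Nr2f2 and Nr2f1 are close relatives that bind the same kind of hormone response element. Nr2f2, on chromosome 7 from 70351944 to 70366735 on the minus strand, had 3349, 2741 and 2779 counts. Its levels were 141, 113 and 112 TPM in replicates 1, 2 and 3 (122 ± 16.6), again highest in replicate 1. The fit called 81.7% of genes lower than Nr2f2 and 10.2% higher.

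Nr2f1, on chromosome 13 from 78188973 to 78199757 on the minus strand, had its library order turned round. It had 273, 415 and 478 counts and 19.5, 29.0 and 32.5 TPM in replicates 1, 2 and 3 (27.0 ± 6.75), so that replicate 1 was its lowest library. The ratio of Nr2f2 to Nr2f1 was therefore 7.24, 3.90 and 3.43 in replicates 1, 2 and 3, and the log2 difference of 2.20 (SE 0.24) passed the threshold (limma, adjusted p = 0.000199). The fit called 44.8% of genes lower than Nr2f1 and 36.3% higher. In that fit limma returned infinite prior degrees of freedom. The p-values of Nr2f1 minus another gene are therefore given below with the spread moderated over all 8 fits together, unless stated otherwise.

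Of 10 excitatory markers, 5 had their lowest TPM in replicate 1 and 3 their highest there, while 40.2% of all genes tested had their lowest scaled count in that library. TPM and scaled counts rescale the libraries differently, so that share is only a rough background. The 2 most abundant went opposite ways, with the kinase gene Camk2a at 2887, 2428 and 2319 TPM and the calmodulin-binding protein Nrgn at 252, 337 and 405 TPM in replicates 1, 2 and 3. Nr2f1 is expressed in excitatory cortical neurons too, and the part of these cells in its deviation was not tested.

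An annotated antisense gene, A830082K12Rik, starts inside Nr2f1 on the opposite strand and overlaps 2.42% of its merged exons. It had 997, 829 and 927 counts in replicates 1, 2 and 3, between 1.94 and 3.65 times those of Nr2f1. The antisense gene was highest in the library where Nr2f1 was lowest. The strand setting behind the counts is not given in the sources used here, and without strand the reads of both genes in the overlap cannot be told apart. For Nr2f2 the opposite gene B130024G19Rik covers 7.46% of the exons but had only 44, 6 and 25 counts. The end of Sp9 meets Cir1, a corepressor gene on the other strand, over 5.35% of the Sp9 exons, and Cir1 had 743, 823 and 813 counts.

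Npas3 and Npas1 belong to the basic helix-loop-helix PAS family, whose members bind DNA as dimers with an Arnt protein. Npas3, spread over chromosome 12 from 53248677 to 54072175 on the plus strand, had 969, 1069 and 988 counts. It stood at 58.6, 63.3 and 57.0 TPM in replicates 1, 2 and 3 (59.6 ± 3.28), and the 3 libraries lay close together. The fit called 68.2% of genes lower and 21.6% higher. Npas1, a repressor on chromosome 7 from 16455721 to 16477728 on the minus strand, had 254, 205 and 232 counts. It stood at 30.7, 24.2 and 26.7 TPM (27.2 ± 3.24), with 46.2% of genes called lower and 37.3% higher. Npas3 exceeded Npas1 in 3 of 3 libraries, by a log2 difference of 1.13 (SE 0.15; limma, adjusted p = 0.000139).

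Sp9 and Sp8 bind GC-rich DNA and are found in the lateral and caudal eminences of the embryo. Sp9, on chromosome 2 from 73271925 to 73284706 on the plus strand, had 321, 301 and 313 counts, which gave 23.1, 21.2 and 21.5 TPM in replicates 1, 2 and 3 (21.9 ± 1.02). The fit called 41.4% of genes lower and 43.1% higher. Sp8, on chromosome 12 from 118846329 to 118852576 on the plus strand, had 110, 112 and 93 counts and 8.76, 8.74 and 7.07 TPM (8.19 ± 0.971). It was the lowest of the regulators in 3 of 3 libraries, with 18.3% of genes called lower and 64.5% higher. Sp9 exceeded Sp8 by a log2 difference of 1.42 (SE 0.18; limma, adjusted p = 0.000401). Sp9 is also a factor of striatal projection neurons that carry the dopamine receptor Drd2. A list of 6 striatal projection neuron genes summed to 95.1, 88.3 and 84.9 TPM in replicates 1, 2 and 3. Its median was 17.4, 15.0 and 14.8 TPM. Ppp1r1b was highest at 25.1, 22.0 and 24.4 TPM, followed by Drd1 at 20.5, 25.4 and 14.6 TPM. Adora2a was lowest at 3.20, 1.05 and 1.58 TPM. The part of these cells in the Sp9 level was not tested.

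Set against each other, 25 of the 28 pairs of regulators differed beyond the spread between libraries. The share of all genes called different was 96.5% from Adarb2, 94.3% from Prox1, 91.9% from Nr2f2, 89.8% from Npas3, 83.6% from Npas1, 81.1% from Nr2f1, 84.5% from Sp9 and 82.8% from Sp8. The count of pairs is near that background. Of the 7 neighbouring steps in the order of levels, 5 passed the threshold. Prox1 exceeded Nr2f2 by a log2 difference of 0.84 (SE 0.16; limma, adjusted p = 0.00124), and Nr2f2 exceeded Npas3 by 1.02 (SE 0.14; limma, adjusted p = 0.000659). The remaining steps, Npas1 to Nr2f1 and Nr2f1 to Sp9, did not pass. Npas1 minus Nr2f1 was 0.65, -0.26 and -0.28 on the log2 scale in replicates 1, 2 and 3, with a mean of 0.04 and a 95% interval of -0.51 to 0.59. Nr2f1 minus Sp9 had a mean of 0.27 and an interval of -0.24 to 0.77, and Npas1 minus Sp9 one of 0.30 with an interval of -0.07 to 0.68. The order among these 3 genes was not resolved with merged exons as length. With principal transcripts, Nr2f1 minus Sp9 was 0.77 (limma fit of Nr2f1 alone, adjusted p = 0.00648). Npas1 minus Sp9 was 0.67 (limma, adjusted p = 0.00821), and both passed. The spread moderated over all 8 fits was not computed with that length.

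The length assigned to a gene bears on this order. Merged exons of the 6 annotated Nr2f2 transcripts cover 8625 bases, while its principal transcript has 4222 bases. With principal transcripts as length, Nr2f2 stood at 163 ± 22.3 TPM and Prox1 at 153 ± 30.03 TPM. Prox1 minus Nr2f2 was then -0.10 on the log2 scale and no longer called (limma, adjusted p = 0.555). Adarb2 was then at 445 ± 90.1 TPM, and the order from Npas3 down to Sp8 differed only in that Nr2f1 at 28.1 ± 7.04 TPM lay above Npas1 at 25.7 ± 3.08 TPM. Adarb2 remained highest and Sp8 lowest under each of the 3 lengths and without a length correction.

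**Figure D2:**
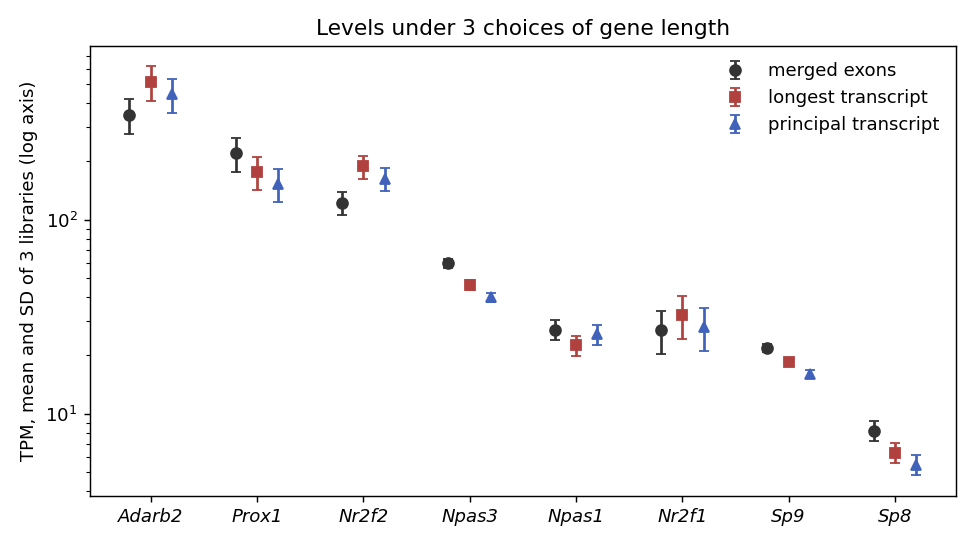
Mean TPM and SD of 3 libraries for each regulator with merged exons, the longest transcript or the principal transcript as length, on a log axis. Prox1 lies above Nr2f2 with merged exons, at 220.2 against 122 TPM, and below it with principal transcripts, at 153 against 163 TPM.

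Between libraries, 6 of the 8 regulators varied more than counting error allows (chi-square test of counts scaled by trimmed mean of M-values, adjusted p at most 0.05), and Sp8 and Sp9 did not pass. Of all 12949 genes tested, 74.3% did so, and the share among the regulators is near that background. Without replicate 1, 3 regulators and 42.7% of genes passed, without replicate 2, 4 regulators and 62.4%, and without replicate 3, 5 regulators and 54.9%. The largest scaled count of Adarb2 was 1.49 times its smallest, that of Prox1 1.46 times and that of Nr2f1 1.62 times, against a median of 1.41 times over all genes tested. Sp9 was steadiest at 1.11 times, followed by Npas3 at 1.12 times. Prox1, Nr2f2, Sp8, Sp9, Npas1 and Adarb2 had their highest TPM and their highest scaled count in replicate 1. Over all genes tested, 38.0% had their highest scaled count in that library.

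**Figure D3:**
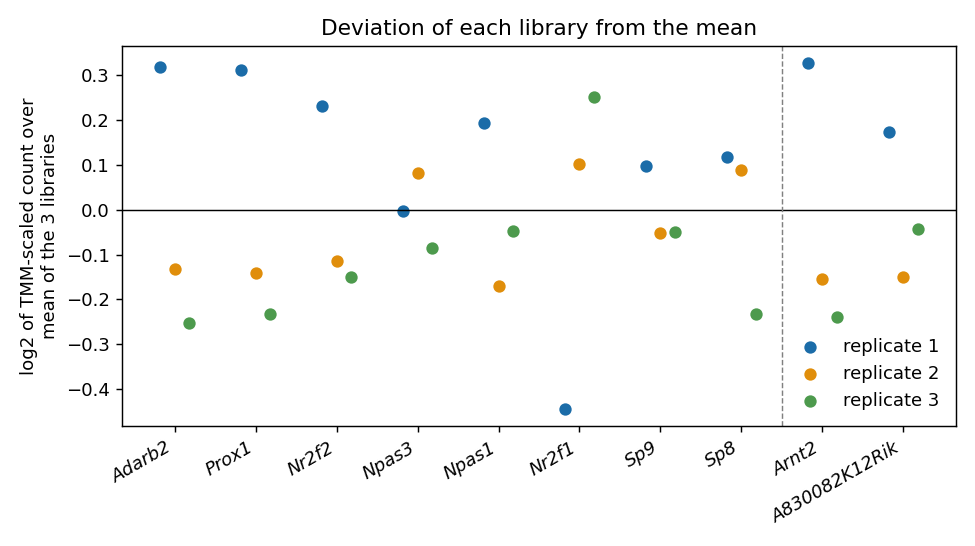
Log2 of the scaled count of each library over the mean of the 3 libraries, for the regulators ordered by level and, right of the dashed line, for Arnt2 and the antisense gene A830082K12Rik. Replicate 1 lies at 0.32 for Adarb2 and 0.31 for Prox1, and at -0.44 for Nr2f1.

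The regulators were next set against 6 regulators of the medial eminence. These are Nkx2-1, which specifies that eminence, its target Lhx6 and the related Lhx8, the factors Sox6 and Satb1 that act in maturing parvalbumin and somatostatin cells, and the leucine zipper factor Maf. Lhx8 had 2, 4 and 0 counts in replicates 1, 2 and 3, below the minimum of the test, which left 40 pairs. Of these, the caudal eminence gene was higher in 21 and lower in 15, and 4 pairs did not pass. The outcome went by gene, from Adarb2 and Prox1 with 5 of 5 higher to Sp8 with 0 of 5 higher and 4 lower. Over all tested genes, 94.3% were called lower than Adarb2, 89.9% than Prox1, 81.7% than Nr2f2 and 68.2% than Npas3. For Npas1, Nr2f1, Sp9 and Sp8 these shares were 46.2%, 44.8%, 41.4% and 18.3%. Called higher were 2.14%, 4.4%, 10.2%, 21.6%, 37.3%, 36.3%, 43.1% and 64.5% in the same order of regulators. The counts of 21 higher and 15 lower are near that background, and the split was not tested against it.

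Adarb2 exceeded the homeobox factor Lhx6, at 71.3, 106.6 and 71.5 TPM in replicates 1, 2 and 3, by a log2 difference of 2.07 (SE 0.23; limma, adjusted p = 2.84e-05). Maf stood at 182, 124 and 113 TPM, highest in replicate 1 as Adarb2 was. Adarb2 minus Maf was 1.33 (SE 0.17; limma, adjusted p = 7.1e-05).

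Prox1 was higher than Nkx2-1, Lhx6, Sox6, Satb1 and Maf. The log2 difference of Prox1 minus Maf was 0.67 (SE 0.16; limma, adjusted p = 0.00427), a call lost without replicate 2 (0.66, adjusted p = 0.0956), without replicate 3 (0.63, adjusted p = 0.0611) and with principal transcripts as length (0.38, adjusted p = 0.0575). Prox1 minus Satb1 was 1.70 (SE 0.19; limma, adjusted p = 4.81e-05), and 0.18 without a call when principal transcripts gave the length (adjusted p = 0.368).

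Nr2f2 was higher than Nkx2-1, Lhx6, Sox6 and Satb1 and was not separated from Maf. The log2 difference of Nr2f2 minus Lhx6 was 0.57 (SE 0.19; limma, adjusted p = 0.0313). It missed the threshold without replicate 3 (0.53, adjusted p = 0.0722), without the trend (adjusted p = 0.0609) and without moderation of the spread (adjusted p = 0.181). Nr2f2 minus Maf was -0.17, with a 95% interval of -0.55 to 0.20, and 0.48 with principal transcripts as length (limma, adjusted p = 0.0119). Nr2f2 minus Satb1 was 0.86 (SE 0.14; limma, adjusted p = 0.00144), and 0.28 without a call with that length (adjusted p = 0.0888).

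Npas3 lay between the medial genes, above Nkx2-1 and Sox6 and below Lhx6 and Maf. Npas3 minus Lhx6 was -0.45 (SE 0.14; limma, adjusted p = 0.0134), with -0.30 and a lost call without replicate 2 (adjusted p = 0.158). Npas3 minus Satb1 was -0.16, which was not called, and -1.74 with principal transcripts as length (limma, adjusted p = 1.31e-06). Npas1 and Nr2f1 were each above Nkx2-1 and Sox6 and below Lhx6, Satb1 and Maf. Nr2f1 minus Lhx6 was -1.63, with an adjusted p of 0.000193 (limma, spread moderated over all 8 fits). Nr2f1 minus Sox6 was 0.73 (adjusted p = 0.0340 in that fit, and 0.0106 in the limma fit of Nr2f1 alone). In the fit of Nr2f1 alone the call was lost without replicate 2 (0.80) or replicate 3 (0.38). With principal transcripts as length that fit lost it too (0.55, adjusted p = 0.0504). It was also lost in limma without moderation (adjusted p = 0.206). Without a length correction the difference turned to -0.81 and was called lower (limma fit of Nr2f1 alone, adjusted p = 0.00273). Npas1 minus Sox6 was 0.77 (limma, adjusted p = 0.0101) and lost its call without replicate 3 (0.58) and with principal transcripts as length (0.44). The call was also lost with the longest transcript (0.13, limma, adjusted p = 0.581) and in limma without moderation (adjusted p = 0.101). Without a length correction Npas1 minus Sox6 turned to -1.53 and was called lower (limma, adjusted p = 1.01e-06).

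Sp9 exceeded only Nkx2-1, at 11.9, 12.3 and 5.73 TPM in replicates 1, 2 and 3, by a log2 difference of 1.21 (SE 0.26; limma, adjusted p = 0.00518). Sp9 minus Sox6 was 0.46 and was not called (limma, adjusted p = 0.0521). It turned to -0.22 with principal transcripts as length (adjusted p = 0.274) and to -1.09 without a length correction (adjusted p = 0.00014). Sp8 lay below Lhx6, Sox6, Satb1 and Maf. Sp8 and Nkx2-1, the lowest tested genes of their lists, differed by -0.21 with a 95% interval of -0.70 to 0.28.

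**Figure D4:**
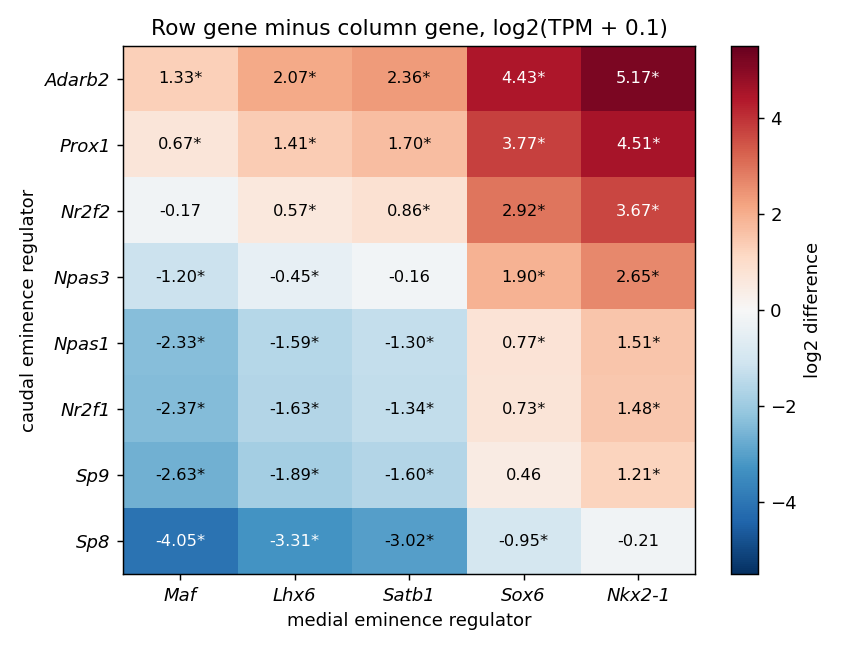
Log2 difference of each caudal eminence regulator (rows) minus each tested medial eminence regulator (columns), mean of 3 libraries, with an asterisk where limma's adjusted p was at most 0.05. Values run from 5.17 for Adarb2 minus Nkx2-1 to -4.05 for Sp8 minus Maf.

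Within their families, the regulators took different places. Of 34 tested pairs with family members or binding partners, the regulator was higher in 16 and lower in 13. Over all genes, between 81.1% and 96.5% were called different from a regulator, and the count of called pairs is near that background. Adarb2 exceeded Adar, at 97.2, 99.1 and 87.2 TPM in replicates 1, 2 and 3, and Adarb1, at 92.6, 102.9 and 107.5 TPM, which are the editing enzymes of the family. The log2 differences were 1.86 (SE 0.19; limma, adjusted p = 1.57e-05) and 1.77 (SE 0.20; limma, adjusted p = 4.06e-05). For the germ-line relatives Adad1 and Adad2 every library held 0 counts. A count of 0 leaves room for at most 0.209, 0.215 and 0.207 CPM in replicates 1, 2 and 3. Prox2, the relative of Prox1, had 1, 3 and 2 counts.

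Both nuclear receptors exceeded their relative Nr2f6, at 5.11, 10.1 and 10.3 TPM in replicates 1, 2 and 3. Like Nr2f1, Nr2f6 was lowest in replicate 1. Bcl11a and Bcl11b, zinc finger proteins first isolated as partners of the COUP-TF receptors, averaged 37.6 and 66.3 TPM. Nr2f2 was above both, by log2 differences of 1.69 (SE 0.16; limma, adjusted p = 9.52e-05) and 0.87 (SE 0.13; limma, adjusted p = 0.000947). Nr2f1 was below Bcl11b by -1.32 (adjusted p = 0.000621, spread moderated over all 8 fits of limma). Nr2f1 minus Bcl11a was -0.51, a difference that did not pass in the fit of Nr2f1 alone (limma, adjusted p = 0.0627) and did with the pooled spread (adjusted p = 0.0315).

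Sp8 and Sp9 were lower than the broadly expressed Sp2, Sp3 and Sp4. Sp3 led the family at 101, 86.5 and 71.1 TPM in replicates 1, 2 and 3, and Sp9 minus Sp3 was -1.96 on the log2 scale (SE 0.12; limma, adjusted p = 1.2e-05). Sp9 exceeded Sp1 by 0.64 (limma, adjusted p = 0.00596), a call lost without replicate 2 (0.61), and Sp8 lay below Sp1 by -0.78 (limma, adjusted p = 0.00529). Sp7, the bone factor osterix, had 18, 51 and 74 counts, or 1.92, 5.34 and 7.55 TPM in replicates 1, 2 and 3. Sp8 minus Sp7 was 0.91 and was not called (limma, adjusted p = 0.0632). It was called without replicate 3 (1.42, adjusted p = 0.0149) and without a length correction (1.32, adjusted p = 0.00541). Sp5 and Sp6 had at most 5 counts in any library.

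Among PAS factors, Npas3 was not separated from Npas2, Hif1a or Epas1, which averaged 71.6, 63.8 and 53.9 TPM. The 95% intervals of the log2 differences were -0.64 to 0.12 for Npas2, -0.48 to 0.30 for Hif1a and -0.28 to 0.59 for Epas1. With principal transcripts as length, Npas3 minus Npas2 was -0.41 (limma, adjusted p = 0.0188) and Npas3 minus Hif1a was -0.38 (limma, adjusted p = 0.0297), and both were called. Npas1 was below these 3. Both exceeded Npas4, a factor induced by neuronal activity, at 11.2, 11.4 and 16.6 TPM in replicates 1, 2 and 3. Npas1 minus Npas4 was 1.07 on the log2 scale (SE 0.22; limma, adjusted p = 0.00187), and Npas3 minus Npas4 was 2.20 (SE 0.20; limma, adjusted p = 1.13e-05). Sim1 averaged 4.15 TPM and Sim2 had 0 counts in 3 of 3 libraries. Of the dimer partners, Arnt2 stood at 419, 305 and 292 TPM and Arnt at 16.6, 12.7 and 15.3 TPM in replicates 1, 2 and 3. Npas3 lay below Arnt2 by -2.49 (SE 0.14; limma, adjusted p = 7.48e-07) and stood 4.01-fold above Arnt (limma, adjusted p = 1.01e-05). Npas1 lay below Arnt2 by -3.62 (SE 0.13; limma, adjusted p = 7.28e-08).

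**Figure D5:**
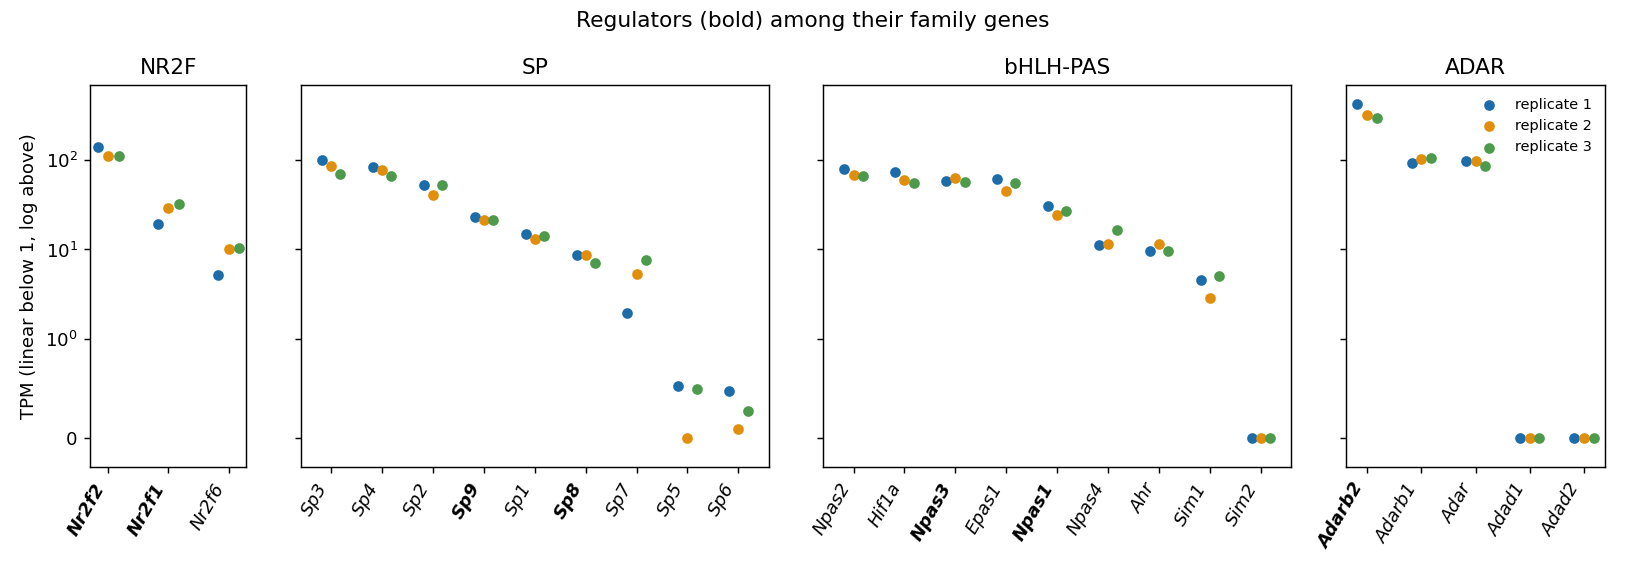
TPM in each library of genes of the NR2F, SP, bHLH-PAS and ADAR families, ordered by level, with the regulators in bold and an axis that is linear below 1 TPM and logarithmic above. Adarb2 and Nr2f2 lead their families, Sp9 and Sp8 lie below Sp3, Sp4 and Sp2, and Sim2, Adad1 and Adad2 lie at 0.

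Likeness in level was measured as the distance of log2(TPM + 0.1), with merged exons as length, over the 3 libraries, against 44 other regulator, family, partner and shared eminence genes. Arnt2 was nearest to Adarb2 at a distance of 0.0716, followed by Prox1 at 1.14. The TPM ratio of Adarb2 over Arnt2 was 1.02, 1.04 and 1.02 in replicates 1, 2 and 3. Without regard to length the 2 genes were apart, with Adarb2 at 1074, 842 and 776 CPM and Arnt2 at 617, 473 and 448 CPM. Arnt2 was also nearest to Prox1, at 1.07, before Adarb2 at 1.14. Dlx5, a homeobox factor shared by the eminences, was nearest to Nr2f2 at 0.102, before Maf at 0.394. Satb1 was nearest to Npas3 at 0.287, before Hif1a at 0.348. These neighbours depend on the length: with principal transcripts, Npas3 minus Satb1 was -1.74, Npas3 minus Hif1a -0.38 and Nr2f2 minus Maf 0.48 on the log2 scale. For Npas1 and Nr2f1 the nearest gene was Dlx2, at 0.419 and 0.617, for Sp9 it was Npas1 at 0.546, and for Sp8 it was Ahr, a PAS receptor for dioxins, at 0.592. Second came Sp9 for Npas1 at 0.546, Npas1 for Nr2f1 at 0.756, Dlx2 for Sp9 at 0.704 and Nkx2-1 for Sp8 at 0.716. These distances describe 3 libraries of 1 group and were not tested.

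Of the 7 fixed factors that all eminences share, 6 reached 1 TPM in 3 of 3 libraries, with a list median of 49.8, 35.5 and 39.0 TPM in replicates 1, 2 and 3. Dlx1 stood at 112, 133 and 125 TPM and Dlx5 at 136, 116 and 118 TPM, in the range of Nr2f2. Gsx2, a factor of eminence progenitors, was lowest with 11, 10 and 2 counts.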

How the data were processed

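The authors deposited 1 table of raw read counts per gene symbol for each of 3 immunopurified libraries, not normalized. The submitters' processing notes list STAR 2.0.0e, HTSeq and mm10 but give no roles. The annotation used, counting mode and strand setting were not given in the sources used here. The 5 lines that name no gene stayed out of all totals. In replicates 1, 2 and 3, reads on no feature made up 11.8%, 10.95% and 13.1% of the records and ambiguous reads 2.49%, 2.83% and 2.68%. Reads whose alignment was not unique made up 11.2%, 11.3% and 13.1% and were counted for no gene.

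Lengths came from GENCODE M21 on GRCm38. A length was found for 23161 symbols as written and for 729 through an earlier symbol, and 8642 were left without one. TPM were computed from counts and merged exon lengths. For each regulator, log2(TPM + 0.1) of every gene with a length and a mean of at least 1 CPM was subtracted within each library. The differences were tested against 0 with limma 3.58.1 (trend, two-sided), and 99592 p-values were adjusted together (Benjamini-Hochberg, threshold 0.05). Differences that share a regulator are not independent. Variation between libraries was tested by chi-square on counts scaled with edgeR 4.0.16, with DESeq2 1.42.0 size factors as an alternative. Intervals of 95% come from limma moderated over all 8 fits. Both tests were tried on simulated data, limma for differences from Prox1 only and the chi-square test on counts with counting error only. The fit of Nr2f1 was not covered. The limit for 0 counts was set at 3 counts and covers counting error only. Computation used Python 3.11.15 (NumPy 2.4.6, pandas 2.3.3, matplotlib 3.10.9) and R 4.3.3.

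The regulators and 19 gene lists were chosen with earlier results of these data known. A gene of the medial eminence list is not reported here, and the counts against that list leave it out. The naming rule covered all 8 regulators, any gene of the other regulator, family and partner lists, the 2 highest and the lowest gene of each marker list, the 2 nearest genes in level, and genes whose exons overlap a regulator. Within it, the pairs given in full were picked after their values were seen. Alternatives covered the length used, the pseudocount (1 TPM), the minimum (none, 5 CPM), the trend, the moderation and leaving out each replicate. The fits without moderation and with moderation over all 8 fits were chosen after seeing the data.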

Additional observations from a re-analysis of the deposited data

How the results depend on the processing

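The count of 25 called pairs among the regulators lay between 24 and 27 under every alternative tried, and those against medial regulators between 14 and 30 higher (21 in the report) and 14 and 19 lower (15 in the report). Of 1222 values for single pairs under alternatives, 1147 kept direction and side of the threshold, 32 lost a call, 21 gained a call and 22 turned direction. No paired comparison of groups was possible because the series has only 1 group, while genes were compared within each library. The cause of the changes below was not tested, except where fewer or more genes were tested by construction.

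With the longest transcript as length, these log2 differences turned: Prox1 minus Nr2f2 (-0.10), Npas1 minus Nr2f1 (-0.50), Nr2f2 minus Maf (0.48) and Sp9 minus Sox6 (-0.15). With principal transcripts they were -0.10, -0.10, 0.48 and -0.22, and Npas1 minus Arnt became -0.17. Without a length correction, Npas1 minus Nr2f1 (-0.72), Npas1 minus Sp9 (-0.44), Nr2f1 minus Sox6 (-0.81), Nr2f2 minus Satb1 (-0.28), Sp8 minus Nkx2-1 (0.46), Sp9 minus Sox6 (-1.09), Npas1 minus Sox6 (-1.53), Sp9 minus Sp1 (-0.0688), Npas1 minus Arnt (-0.53) and Npas3 minus Npas2 (0.0667) turned. Of the pairs turned without a length correction, all but Sp8 minus Nkx2-1, Sp9 minus Sp1 and Npas3 minus Npas2 were called in the turned direction. Leaving out 1 replicate turned Npas1 minus Nr2f1 (-0.27 to 0.20) and Npas3 minus Hif1a (-0.162 to 0.0384), each without replicate 1, and Npas3 minus Epas1 (-0.0140 to 0.275), without replicate 2.

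With a minimum of 5 CPM, 100 of the 102 pairs could be tested. Without moderation, 10 single pairs lost their call, among them Prox1 minus Lhx6 (limma, adjusted p = 0.0526), Nr2f1, Sp9 and Npas1 minus Nkx2-1 (0.125, 0.0871 and 0.0665) and Npas3 minus Lhx6 (0.110). The genes called lower than Sp8 numbered 1253 in that fit, against 2278 in the report.

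Counts of all genes moved by over 1.5 times as follows. Genes higher than Prox1 numbered 864 with principal transcripts and 343 without a length correction, against 548 in the report. Those higher than Nr2f2 numbered 730, 845 and 789 with the longest transcript, principal transcripts and no correction, against 1272. Those higher than Adarb2 numbered 155 with the longest transcript and 79 without correction, against 267, and 198 to 420 when 1 replicate was left out. With no minimum, 9728, 6321, 9366 and 9955 genes were lower than Nr2f1, Sp8, Sp9 and Npas1, and with a minimum of 5 CPM 2986, 455, 2609 and 3164, against 5572, 2278, 5150 and 5757. Sp8 had 1517 lower genes with principal transcripts and 1502 to 2300 when 1 replicate was left out. Genes that varied between libraries numbered 5542 to 8070 when 1 replicate was left out, against 9620. Nr2f1, Nr2f2 and Npas1 did not pass without replicate 1, Npas1 and Npas3 without replicate 2, Npas3 without replicate 3 and Npas1 with total counts. Sp8 had the fewest counts of the regulators, 93 to 112 a library.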
